A study of Rattus norvegicus with 138 samples.

Results

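Injured tibialis anterior (TA) muscles that had received an autologous minced muscle graft (MMG) were compared with injured TA muscles left without repair, both at 3 days after volumetric muscle loss (VML). Members were the muscles whose labels gave VML, no running and day 3. There were 10 of them among the 114 muscles of the series that were kept: 7 grafted muscles, from rats 009, 013, 014, 021, 022, 091 and 100, and 3 non-repaired muscles, from rats 010, 017 and 018. Each muscle came from a different rat and gave 1 library.

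The animals were inbred male Lewis rats of about 4 months. A 6-mm biopsy punch removed part of the left TA muscle, and in the grafted arm the excised tissue was cut into small pieces and returned to the defect, so that graft and host carried the same genotype. RNA was taken from the TA muscle as a whole. A library of a grafted muscle therefore pooled graft, wound and remaining muscle, and a library of a non-repaired muscle pooled wound and remaining muscle. The grafted muscle also held the returned tissue itself, and RNA of the graft and of the host could not be told apart. The values were TPM per gene symbol, which is transcript abundance corrected for length and scaled to the same total in every library, and all fold changes here are differences of log2(TPM + 1), which understate the change of genes at low TPM. In bulk tissue, fewer cells of a type and less RNA per cell cannot be told apart.

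At 3 days after injury, skeletal muscle is in the phase in which neutrophils have entered, monocytes are turning into macrophages, and the satellite cells, the stem cells of muscle, have left quiescence and divide as myoblasts. Fibroblasts, fibroadipogenic progenitors and endothelial cells divide in the same days. Genes of DNA replication and mitosis are low in resting muscle and mark all of these dividing cells together, whereas sarcomere genes mark surviving fibers. A minced graft lacks a blood supply at first and can pass satellite cells and matrix to the wound.

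Both arms carried the RNA of injured muscle. Of 11213 genes tested, 6063 (54.1%) were called higher in grafted muscle than in the 4 unoperated control muscles labelled Sham, which came from 2 rats, and 5474 (48.8%) in non-repaired muscle (limma, adjusted p under 0.05 and a log2 fold change beyond 1 in either direction). The arms shared these controls and held 7 and 3 muscles, so the 2 counts do not compare the arms. Fast fiber genes were present in all 10 muscles, Mylpf, the fast regulatory myosin light chain, for example at 4750 to 13073 TPM. The 10 libraries held 10475 to 10744 symbols above 1 TPM, and ribosomal RNA took 0.0751% to 1.05% of their TPM. Read depth per library was not in the table.

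Some muscles stood apart from the rest. Grafted rats 009 and 013 had the lowest fiber genes: summed over the 39 tested genes of the adult sarcomere and calcium release, they held 38643 and 45282 TPM, against 80080 to 95195 TPM in the other 5 grafted muscles and 76668 to 103110 TPM in the non-repaired muscles. Beta-globin, the marker of blood in the sample, was high in 1 muscle of each arm: Hbb stood at 20920.1 TPM in grafted rat 009 and at 40905.5 TPM in non-repaired rat 018, and at 1285 to 4547 TPM in the other 8. Across genes, which are not independent replicates, 2 grafted muscles correlated at a median r of 0.985 over 21 pairs, 2 non-repaired muscles at 0.979 over 3 pairs, and a grafted and a non-repaired muscle at 0.984 over 21 pairs; correlations this high cannot show small shifts between the arms.

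The graft difference at 3 days was small. No gene was called higher in grafted muscle (0% of 11213), and 2 were called lower (0.0178%). Without the limit on fold change, 24 genes (0.214%) rose and 5 (0.0446%) fell at an adjusted p under 0.05, and the words rose and fell are used below in this sense. The 24 genes that rose did so by 0.37 to 0.81 on the log2 scale, with a median of 0.54. At an unadjusted p under 0.05 the split was 1816 genes higher (16.2%) and 204 lower (1.82%), and the groups did not overlap for 591 genes higher (5.27%) and 25 lower (0.223%). The median of all tested genes was 0.14, and 77.2% of them were positive. With median-of-ratios size factors that median was -0.01, and the unadjusted split turned to 452 higher and 860 lower, so values of single lists are read below against the median of all genes.

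The count of 24 was fragile. It was 4 without grafted rat 009, 13 without rat 013, 15 without rat 100, 5 without non-repaired rat 018, 1 without rats 009 and 018, and 0 when the 2 arms were fitted alone, where 1909 genes still had an unadjusted p under 0.05. Leaving out any other single muscle raised it, to 92 without non-repaired rat 017, 67 without rat 010 and 43 to 66 without grafted rat 014, 021, 022 or 091. Of the 24 genes themselves, Recql4, Pole, Kntc1 and Pif1 passed without rat 009, Recql4, Pole, Hmga2 and Gen1 without rat 018, Recql4 and Pole without rats 009 and 013, and none without rats 009 and 018, so that the differences given below as rises hold with all 10 muscles in the fit. With size factors it was 1, and with a pseudocount of 0.1 TPM it was 0.

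The genes that rose are given below by their known roles, an order made after their values were seen and not tested as a theme. Recql4, a helicase of replication and repair, was at 6.84, 5.47, 3.68, 4.29, 3.89, 4.10 and 4.78 TPM in grafted rats 009, 013, 014, 021, 022, 091 and 100, and at 3.06, 2.20 and 2.39 TPM in non-repaired rats 010, 017 and 018. All 7 grafted muscles lay above all 3 non-repaired muscles, and rat 009 was the highest. Recql4 rose by 0.67 (SE 0.11, adjusted p = 0.00123; exact permutation test, two-sided p = 0.00833, the smallest that 7 muscles against 3 allow), and by 0.60 without rat 009. With both rat 009 and rat 018 left out the value was 0.57, with an adjusted p of 0.0728.

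Pole, the catalytic subunit of DNA polymerase epsilon, which copies the leading strand, showed the same order of groups. It was at 7.88, 5.46, 4.09, 4.35, 4.48, 4.91 and 5.68 TPM in the grafted muscles, in the same order of rats, and at 2.82, 3.78 and 2.91 TPM in the non-repaired muscles. The groups did not overlap, although the lowest grafted muscle, rat 014, was close to the highest non-repaired one, rat 017. Pole rose by 0.57 (SE 0.10, adjusted p = 0.00123), and the value was 0.44 with an adjusted p of 0.0809 without rats 009 and 018. Unoperated controls held 0.99 TPM of Pole and 0.31 TPM of Recql4, so both genes were already above control without a graft.

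Other genes rose by like amounts. Kntc1, a kinetochore protein of the spindle checkpoint, had a mean of 6.73 ± 1.81 TPM (SD, n = 7) in grafted and 3.98 ± 0.563 TPM (SD, n = 3) in non-repaired muscle and rose by 0.61. Clspn, the checkpoint adaptor claspin, rose by 0.59, Mdc1, a scaffold at DNA breaks, by 0.59, and Exo1, the exonuclease of mismatch repair, by 0.52. Brca1 and its partner Bard1, which act in repair by homologous recombination, rose by 0.45 and 0.57. The resolvases Gen1 and Eme1 rose by 0.50 and 0.57. Pif1, Tonsl, Sgol2, Kif20b and Ncapd3, a helicase, a protein of stalled replication forks, a guardian of centromere cohesion, a kinesin and a condensin subunit, rose by 0.44, 0.45, 0.56, 0.56 and 0.49. E2f7, a repressor of the cell cycle program, rose by 0.48. Of all 24 genes that rose, 14 had groups that did not overlap, as 5.27% of all genes did in the higher direction. The 24 were picked by their p-values in these same muscles, so this count adds no support. Most of these genes stood at a few TPM, and none reached a log2 fold change of 1.

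The cell cycle list, which holds replication licensing factors, cyclins, kinases and spindle genes, had a median above that of all genes. Its 33 tested members of 34 had a median log2 fold change of 0.46, against 0.14 for all genes, and all 33 were positive, from 0.12 to 0.64. None passed the adjusted threshold, while 26 were higher at an unadjusted p under 0.05 (16.2% of all genes were) and 13 had groups that did not overlap (5.27% of all genes).

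Mcm5, a subunit of the replication licensing helicase, had the largest value, 0.64 (adjusted p = 0.125). Mcm2, another subunit, was at 45.49, 35.66, 26.83, 27.24, 25.50, 30.21 and 30.96 TPM in the grafted muscles and at 24.45, 21.91 and 16.93 TPM in the non-repaired muscles, in the same order of rats as above. The groups did not overlap, but grafted rat 022 lay just above non-repaired rat 010. The difference was 0.56 (SE 0.15, adjusted p = 0.0785). For Mki67, the proliferation antigen Ki-67, grafted rat 009 stood alone at 50.02 TPM, the other grafted muscles lay between 20.89 and 30.86 TPM, and the non-repaired muscles were at 17.12, 20.05 and 17.43 TPM. Its difference was 0.60 (SE 0.18, adjusted p = 0.108). Pcna, the sliding clamp of the replication fork, was at 142.39 to 210.72 TPM in grafted and 118.52 to 161.49 TPM in non-repaired muscle, and these ranges overlapped.

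Taken muscle by muscle, the list had a median level of 0.99 in grafted rat 009, of 0.63 in rat 013 and of 0.21 to 0.49 in the other 5, on log2 relative to the mean of the non-repaired muscles, which themselves lay at 0.23, 0.00 and -0.23. Rat 014, the lowest grafted muscle, lay below non-repaired rat 010. Without rats 009 and 013 the list's median fold change was 0.35 and 17 members were higher at an unadjusted p under 0.05 (6.55% of all genes were under this setting). Without rats 009 and 018 these were 0.28 and 4 (3.26% of all genes), and with size factors 0.30 and 15 (4.03%). Erythroid and neutrophil genes were also high in rat 009, and their part in these values was not tested.

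Since all tested cell cycle members were positive, their promoters were read for the CHR element (TTTGAA) and for the CCAAT box (CCAAT), the pair of short motifs that many genes of mitosis share. In windows from 250 bases before to 50 bases after the start, on both strands, where neighbouring motifs may share end bases and each was counted on its own, 15 of the 27 members with a promoter in the RefSeq table held TTTGAA (55.6%; 18.3% of all 33469 promoters), 19 held CCAAT (70.4%; 37.5%), and 11 held both (40.7%; 7.41%). Of the 13 endothelial promoters 1 held both (7.69%). The E2F letters TTTCCCGC or TTTGGCGC were in 4 of the 27 (14.8%; 1.45%). The list counts used a single promoter for each member and the background every listed promoter, so the shares are not fully alike. They follow from the choice of the list and do not depend on the values measured here. A match is a description of the letters in these windows and not evidence of a bound factor. The last 150 bases before the start are shown for 3 members with both motifs, 5′ to 3′ along the gene, with the motifs of either strand in capitals (RefSeq, GRCr8).
Cdc20 promoter, chr5:137255800-137255949 (minus strand): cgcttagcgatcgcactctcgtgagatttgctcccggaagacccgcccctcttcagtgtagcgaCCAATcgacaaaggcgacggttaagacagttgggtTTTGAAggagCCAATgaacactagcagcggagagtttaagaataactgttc
Ccnb2 promoter, chr8:79981659-79981808 (minus strand): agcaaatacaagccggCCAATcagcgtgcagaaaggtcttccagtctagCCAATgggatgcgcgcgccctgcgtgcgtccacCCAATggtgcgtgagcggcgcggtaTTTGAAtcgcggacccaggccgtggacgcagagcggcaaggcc
Top2a promoter, chr10:84473094-84473243 (minus strand): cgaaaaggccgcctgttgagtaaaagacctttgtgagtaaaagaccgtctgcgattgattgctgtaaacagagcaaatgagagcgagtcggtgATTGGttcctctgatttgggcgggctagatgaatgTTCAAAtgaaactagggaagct

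These 3 members behaved like the list. Top2a, the topoisomerase that untangles sister chromatids, was at 23.26 to 50.90 TPM, with a median of 27.29 TPM, in grafted muscle and at 21.27, 21.82 and 17.60 TPM in non-repaired muscle, so that its groups did not overlap. Cdc20, the activator of the anaphase-promoting complex, was at 38.74 to 66.42 TPM and at 41.87, 27.80 and 24.96 TPM, and its groups overlapped, as those of the mitotic cyclin Ccnb2 did (39.95 to 62.88 TPM and 46.14, 34.08 and 30.87 TPM).

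**Figure D1:**
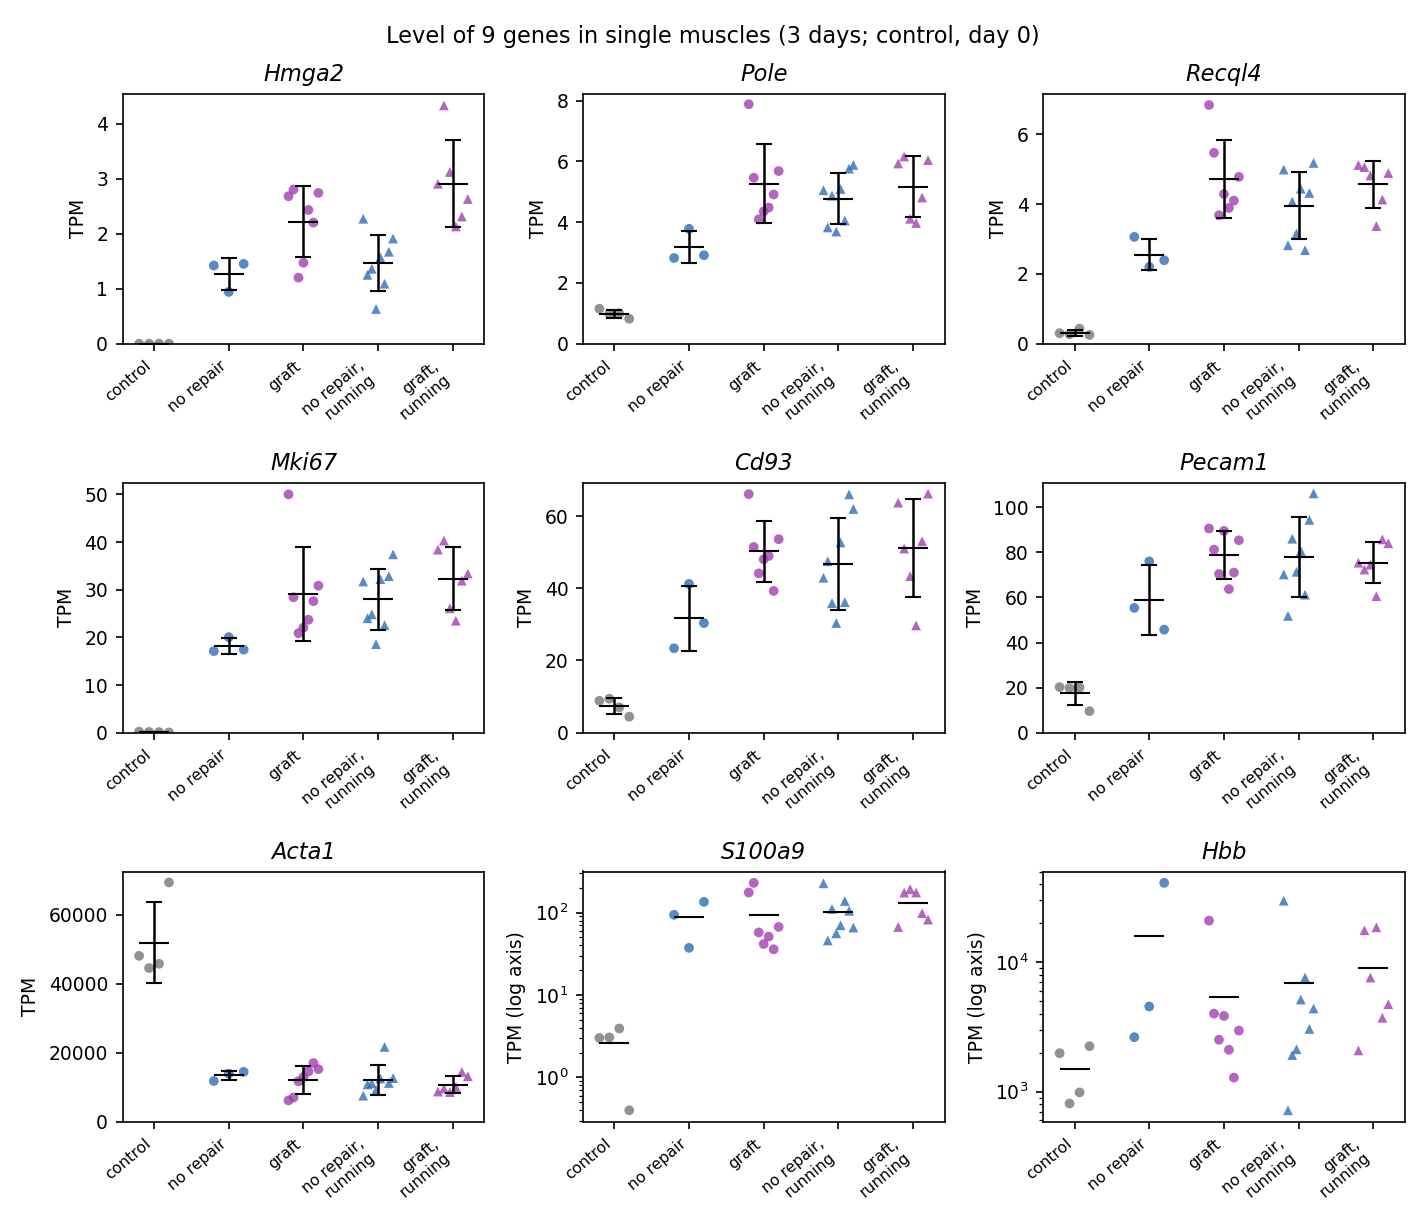
Level of 9 genes in TPM in single muscles of the unoperated controls (gray), the 10 injured muscles at 3 days (circles) and the running rats at 3 days (triangles); black marks are means with SD, and on the log axes of S100a9 and Hbb means only. Grafted muscles lie above non-repaired ones for Pole and Recql4, the same genes overlap between arms in running rats, and 1 muscle of each arm carries the high Hbb.

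Endothelial genes formed the other list well above the median of all genes. Its 23 tested members of 25 had a median of 0.42, 22 were positive, 16 were higher at an unadjusted p under 0.05 (16.2% of all genes were) and 3 had groups that did not overlap (5.27% of all genes); none passed the adjusted threshold. Outside the list, Cd93, a receptor of endothelial and myeloid cells, rose. It was at 66.10, 51.45, 44.15, 48.04, 48.96, 39.28 and 53.61 TPM in the grafted muscles and at 23.38, 41.23 and 30.37 TPM in the non-repaired muscles, with the grafted muscle of rat 091 below non-repaired rat 017. Its difference was 0.67 (SE 0.16, adjusted p = 0.0363), and 0.59 with an adjusted p of 0.691 without rats 009 and 018.

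Among the members, Eng, the endothelial co-receptor of the TGF-beta family, was at 119.08, 108.32, 88.54, 99.08, 79.04, 90.33 and 92.62 TPM in grafted and at 77.55, 69.94 and 50.22 TPM in non-repaired muscle. The ranges did not overlap, and rat 018 was the lowest of all 10. The difference was 0.56 (SE 0.16, adjusted p = 0.108). Nos3, the endothelial nitric oxide synthase, differed by 0.50 (adjusted p = 0.108), and Pecam1, the junction protein CD31, by 0.43 (adjusted p = 0.209). Pecam1 was at 63.7 to 90.6 TPM and at 55.4, 76.0 and 45.7 TPM. Kdr, the main receptor of vascular endothelial growth factor, differed by 0.28 and its groups overlapped. Without rat 018, which had the lowest level of the list, the median was 0.25 and 1 member had an unadjusted p under 0.05, where 574 of all 11213 genes were higher; for the cell cycle list the number without that muscle was 14 of 33.

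The remaining genes that rose have other known roles. Hmga2, an architectural chromatin protein of embryonic and dividing cells, was listed at 0 TPM in all 4 controls. It was at 2.68, 2.80, 1.2, 1.47, 2.43, 2.20 and 2.74 TPM in the grafted muscles and at 1.42, 0.94 and 1.45 TPM in the non-repaired muscles. Rat 014 lay within the range of the non-repaired muscles, rat 021 just above it, and the other 5 clearly above it. Hmga2 rose by 0.48 (SE 0.10, adjusted p = 0.0175; exact permutation test, two-sided p = 0.0667); the adjusted p was 0.0577 without rat 009 and 0.0397 without rat 018. Slc38a1, a glutamine transporter, stood at 4.64 to 6.95 TPM in grafted and at 3.62, 3.63 and 3.32 TPM in non-repaired muscle and rose by 0.56. Nacc1, a BTB domain repressor, and Tcof1, which supports the making of ribosomal RNA, rose by 0.51 and 0.37, each with groups that did not overlap. Krt80, a keratin, Camk1d, a calmodulin kinase, and Serpinb10, a protease inhibitor, rose by 0.81, 0.49 and 0.39 with overlapping groups, and Krt80 ranged from 1.18 to 7.67 TPM among grafted muscles.

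Of the 5 genes that fell, 4 were microRNA entries at the floor of the table. Mir668 was listed at 0 in all 7 grafted muscles and at 0, 3.49 and 2.20 TPM in non-repaired rats 010, 017 and 018. Mir6332 was listed at 0 in the grafted muscles and at 2.22, 2.46 and 0 TPM in the non-repaired ones. Mir150 and Mir350 were above 0 in 1 muscle each, at 5.70 TPM in rat 018 and at 3.02 TPM in rat 010. With all grafted muscles at 0, the size of these differences is set by the pseudocount and is neither a fold change nor a bound, and the exact permutation test for Mir668 and for Mir6332 gave a two-sided p of 0.0667 each. Mir668 and Mir6332 were the 2 genes called lower, on differences of this kind. The gene symbols do not say which mature form or precursor was counted. The mature sequences that RefSeq (GRCr8) lists for 3 of the 4, with the seed (bases 2 to 8) in capitals, are shown because these genes lead the lower direction, and they share no seed.
rno-miR-668, chr6:134570949-134570972 (plus strand): uGUCACUCggcucggcccacuacc
rno-miR-6332, chr5:166120278-166120300 (plus strand): cGCAGGGAcugcaaggagccgca
rno-miR-350, chr13:91244549-91244572 (minus strand): uUCACAAAgcccauacacuuucac

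The gene of higher level that fell was Fbxo17, an F-box protein. It was at 1.81 to 6.21 TPM in grafted muscle, with a median of 4.07 TPM, and at 5.51, 8.95 and 7.14 TPM in non-repaired muscle; only rat 014 of the grafted muscles reached the non-repaired range. Fbxo17 fell by 0.67 (SE 0.16, adjusted p = 0.0456), with an adjusted p of 0.145 without rat 009 and 0.322 without rat 018. The other 11 genes named for the smallest p in the lower direction missed the threshold. They included Myl4, the atrial and embryonic myosin light chain (difference -0.80, adjusted p = 0.123), Itgb1bp2, the muscle chaperone melusin (-0.72, adjusted p = 0.108), Bpgm, the bisphosphoglycerate mutase of red cells (-0.54, adjusted p = 0.0801), and Slc4a1ap (-0.37, adjusted p = 0.116), which alone among the 12 had groups that did not overlap. The largest differences among these 11 were those of the microRNA entries Mir331 and Mir290, -2.66 and -1.41 (exact permutation test, two-sided p of 0.05 and 0.125).

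Muscle fiber genes lay below the median of all genes, mainly through rats 009 and 013. The 39 tested members of 43 of the adult sarcomere and calcium release list had a median of -0.35; 3 were positive, 10 were lower at an unadjusted p under 0.05 (1.82% of all genes were) and none passed the adjusted threshold. Tnnc2, the fast troponin C, was at 2619 and 3393 TPM in rats 009 and 013, at 5878 to 6940 TPM in the other 5 grafted muscles and at 6324, 7043 and 8278 TPM in the non-repaired muscles. Acta1, the skeletal actin, was at 6153 and 7004 TPM in the same rats, at 11713 to 17002 TPM in the other grafted muscles and at 11797, 13952 and 14453 TPM without repair. Apart from these rats the arms overlapped for both genes: without them the list's median was -0.02 and no member had an unadjusted p under 0.05. Pvalb, the calcium buffer parvalbumin of fast fibers, differed by -0.65 (adjusted p = 0.193) and Ckm, the muscle creatine kinase, by -0.42 (adjusted p = 0.296).

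The 35 tested oxidative phosphorylation genes of 36 were all negative, from -0.57 to -0.06 with a median of -0.18, and 9 were lower at an unadjusted p under 0.05. Cox8b, the muscle form of a cytochrome c oxidase subunit, differed by -0.57 (adjusted p = 0.128). Atp5h, a stalk subunit of ATP synthase, was at 590 to 798 TPM in grafted and at 814 to 874 TPM in non-repaired muscle, groups that did not overlap, with a difference of -0.25 (adjusted p = 0.161). Without rats 009 and 013 the median was -0.08 and no member had an unadjusted p under 0.05. The 25 glycolysis and glycogen genes had a median of -0.20, with 4 higher and 6 lower at that threshold, which 16.2% of all genes passed as higher and 1.82% as lower; without non-repaired rat 017 the median was -0.03.

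Genes of new fibers differed in the same direction as fiber genes, and their regulators showed no common direction. The 19 tested fusion and new fiber genes of 20 had a median of -0.29, with 2 positive and 3 lower at an unadjusted p under 0.05 (1.82% of all genes were). The median was -0.10 without rats 009 and 013 and -0.11 without non-repaired rat 017. Tmem8c, which encodes the fusion protein myomaker, was at 8.63 TPM in grafted rat 009, at 29.14 to 47.00 TPM in the other grafted muscles and at 45.94, 65.73 and 32.73 TPM in the non-repaired muscles (difference -0.64, adjusted p = 0.239). Embryonic myosin Myh3 was at 9.23 TPM in rat 009, at 22.76 to 53.28 TPM in the other grafted muscles and at 38.42, 103.12 and 43.23 TPM without repair. Non-repaired rat 017 was the highest and grafted rat 009 the lowest for both genes, and the other muscles overlapped.

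The 22 tested myogenic regulators and satellite cell genes of 23 had a median of -0.01, with 11 positive. Myod1, the regulator of committed myoblasts, was at 63.5 to 109.6 TPM in grafted muscle and at 103.2, 76.8 and 80.5 TPM in non-repaired muscle, a difference of 0.03 with a 95% interval from -0.55 to 0.61. Myog, the regulator of differentiation, was at 189 TPM in rat 009, at 331 to 606 TPM in the other grafted muscles and at 423, 518 and 510 TPM in the non-repaired muscles (difference -0.36, adjusted p = 0.502). Pax7, the transcription factor of satellite cells, was at 2.07 to 4.25 TPM and at 1.69, 5.57 and 2.71 TPM. None of these 3 genes passed the threshold, and their groups overlapped. Members of the list with an unadjusted p under 0.05 were Notch3, Met and Hgf, a Notch receptor, the receptor of hepatocyte growth factor and that factor itself, at 0.52, 0.41 and 0.33, a smaller share of the 22 than the 16.2% of all genes.

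**Figure D2:**
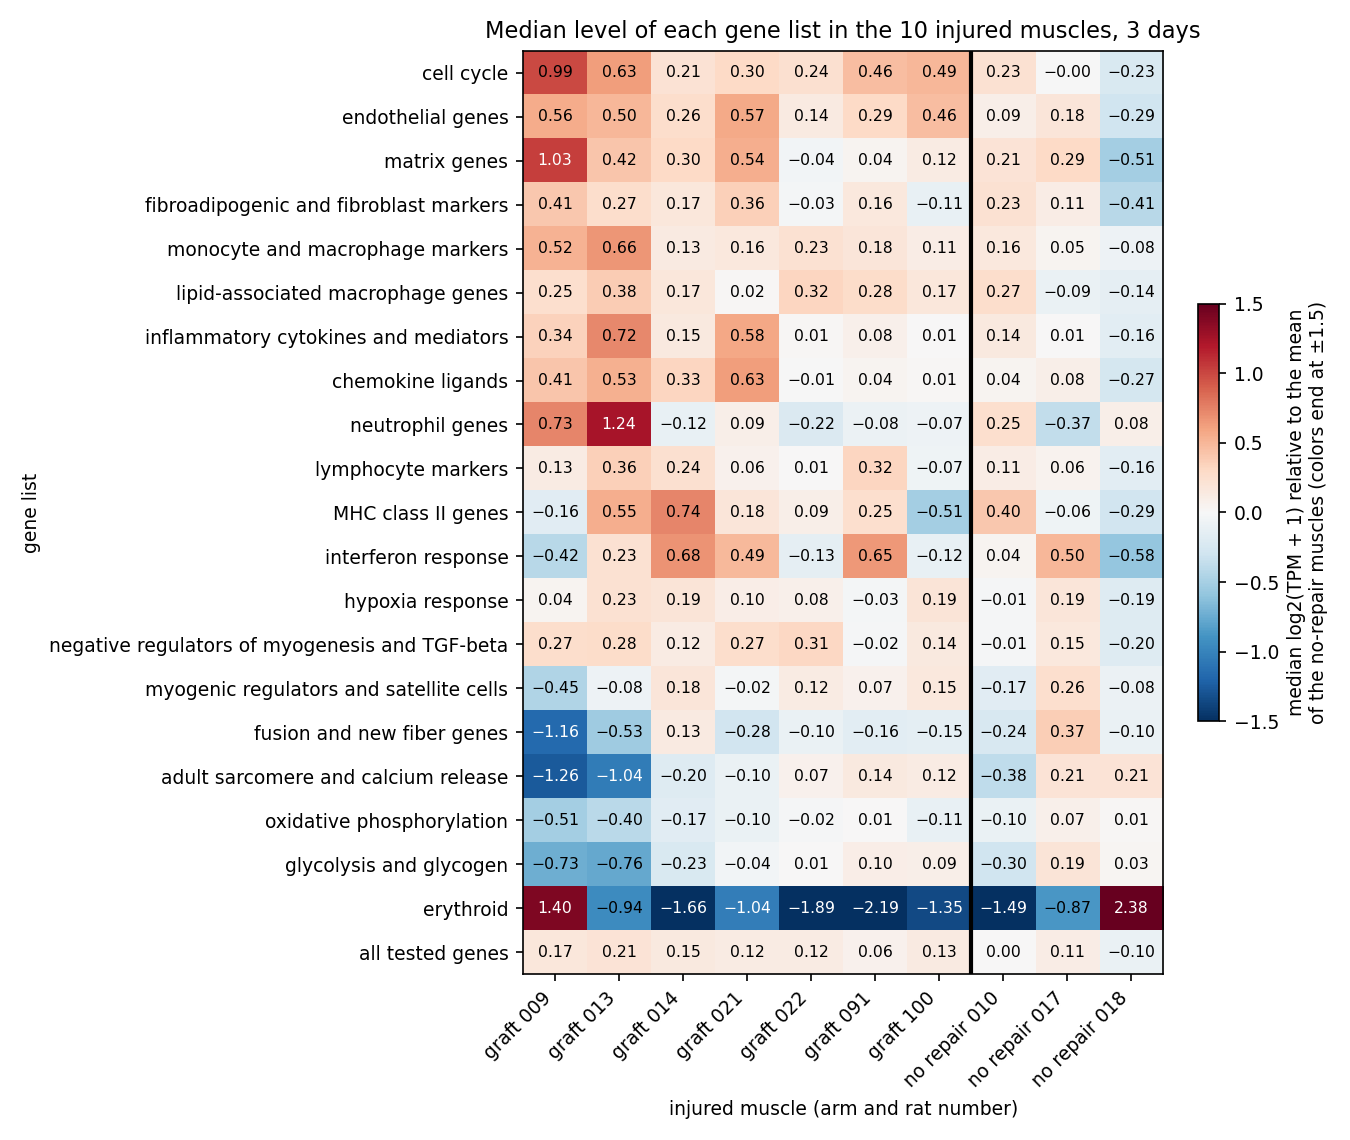
Median of log2(TPM + 1) over the tested members of each gene list, relative to the mean of the 3 non-repaired muscles, for each of the 10 injured muscles at 3 days; the colors end at 1.5 in both directions. Grafted rats 009 and 013 carry the low fiber genes and the high cell cycle and neutrophil genes, and grafted rat 009 and non-repaired rat 018 the high erythroid genes.

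No member of the immune and inflammatory lists passed the adjusted threshold at 3 days. All 21 tested monocyte and macrophage markers of 22 were positive, with a median of 0.27 (0.11 with size factors) and 4 members higher at an unadjusted p under 0.05, near the 16.2% of all genes; 2 had groups that did not overlap (5.27% of all genes). Msr1, the scavenger receptor CD204, was at 61.90 to 135.32 TPM in grafted muscle and at 51.95, 55.74 and 56.54 TPM in non-repaired muscle (difference 0.70, SE 0.25, adjusted p = 0.170). The 3 non-repaired muscles lay close together and below every grafted muscle. The inflammatory cytokines and mediators had a median of 0.29 over 17 tested members of 21, with 4 higher at that threshold (16.2% of all genes were): Nos2, the inducible nitric oxide synthase, at 0.56, the cytokine Il10 at 0.41, the inflammasome sensor Nlrp3 at 0.31, and the macrophage growth factor Csf1 at 0.49.

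Of 23 tested chemokine ligands of 25, the neutrophil attractants Cxcl3 and Cxcl2 had the largest differences, 1.06 (SE 0.39, adjusted p = 0.178) and 0.96 (SE 0.39, adjusted p = 0.214). Cxcl3 was at 5.73, 7.88, 4.01, 10.24, 2.61, 1.96 and 5.17 TPM in the grafted muscles and at 3.49, 0.90 and 1.53 TPM in the non-repaired muscles, and the groups overlapped through rats 022, 091 and 010. Of the neutrophils' own genes, 14 of 22 were tested, with a median of 0.21 and with 1 higher and 1 lower at an unadjusted p under 0.05 (16.2% of all genes were higher and 1.82% lower). The alarmin S100a9 was at 175 and 229 TPM in grafted rats 009 and 013, at 35.9 to 67.0 TPM in the other grafted muscles and at 94.0, 37.3 and 134.9 TPM in the non-repaired muscles, so that either arm held both high and low muscles. Without rats 009 and 013 the median of the neutrophil list was -0.02. The lymphocyte, MHC class II and interferon lists had no member at an unadjusted p under 0.05 in either direction.

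Matrix genes were mostly positive, with 31 of 32 tested members above 0, where 77.2% of all genes were, a median of 0.32, and 3 higher at an unadjusted p under 0.05, a smaller share than the 16.2% of all genes. Lox, which cross-links collagen, was at 71.0 to 177.0 TPM in grafted and at 62.2, 103.7 and 47.15 TPM in non-repaired muscle (difference 0.61, SE 0.29, adjusted p = 0.268). Col1a1, the main collagen of scar, was at 4624 TPM in rat 009, at 1328 to 3012 TPM in the other grafted muscles and at 2153, 2038 and 956.5 TPM in the non-repaired muscles. The arms overlapped for both genes. The list's median rested on the muscles at the ends, rat 009 the highest and rat 018 the lowest: without both it was 0.01.

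Of 16 hypoxia response genes, 3 were higher at an unadjusted p under 0.05, near the 16.2% of all genes. Car9, a carbonic anhydrase induced by low oxygen, was at 1.30 to 3.46 TPM in grafted and at 1.68, 1.56 and 0.73 TPM in non-repaired muscle (difference 0.52, adjusted p = 0.108). Slc2a1, the glucose transporter GLUT1, differed by 0.55 (adjusted p = 0.209), and Ndrg1, a stress-induced gene of the same response, by 0.63 (adjusted p = 0.143) with groups that did not overlap. The whole list had a median of 0.16, close to that of all genes, and of -0.02 without rat 018.

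The 25 genes taken from the study's text on inflammation, fibrosis and myogenesis, most of which it had named for their expression in this series, were all tested. None passed the adjusted threshold; 18 were positive and 7 negative, and 1 in each direction had an unadjusted p under 0.05, where 16.2% of all genes were higher and 1.82% lower: Pdgfra, a marker of fibroadipogenic progenitors, at 0.38 and Tmem8c at -0.64. Spp1, the macrophage product osteopontin, had the largest positive value among them, 0.76 (SE 0.59, adjusted p = 0.456), at 3728 ± 1081 TPM (SD, n = 7) against 2257 ± 916 TPM (SD, n = 3). Col3a1 and Tgfb1, a fibrillar collagen and the main fibrogenic cytokine, differed by 0.37 and 0.30.

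Rats labelled as running gave a separate pair of arms at 3 days, with 6 grafted and 8 non-repaired muscles from other rats; the exercise was not described in the sources used here. A non-repaired muscle stood apart: both kept libraries of non-repaired running rat 002 held ribosomal RNA at 14.8% and 15.4% of their TPM, against 0.124% to 0.436% in the other 14 kept libraries of these arms, and its cell cycle genes had the lowest median level of the 14 muscles, -0.31 on log2 relative to the mean of the non-repaired running muscles. Results with and without this rat are given below. With it, no gene was called, and 2 genes rose (0.0178%), Hmga2 and Gjb2. Hmga2 was at 2.91, 4.33, 3.12, 2.13, 2.31 and 2.63 TPM in the grafted and at 0.63 to 2.27 TPM, with a median between 1.36 and 1.57 TPM, in the non-repaired running muscles. All but the grafted rat at 2.13 TPM lay above the highest non-repaired rat. The difference was 0.67 (SE 0.09, adjusted p = 8.0e-07), and over running and non-running rats together the adjusted p was 9.0e-08. Without rat 002 it was 0.65 (adjusted p = 5.28e-06). No gene passed in running rats with a pseudocount of 0.1 TPM or with the 2 running arms fitted alone. At an unadjusted p under 0.05, 185 genes were higher (1.65%) and 30 lower (0.268%), and 164 and 57 without rat 002. Without that rat 1 gene was called, Defb41, a beta-defensin, named after its value was seen (1.01, adjusted p = 0.00302, against 0.80 and 0.314 with it).

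Gjb2, the gap junction protein connexin 26, differed by 0.76 in running rats (SE 0.14, adjusted p = 0.00329; 0.69 and 0.0219 without rat 002) and by 0.45 in non-running rats (adjusted p = 0.147). In non-running rats it was at 2.15, 2.21, 1.00, 2.33, 1.09, 2.54 and 3.34 TPM with a graft and at 1.02, 1.61 and 1.01 TPM without, so that rat 014 was the lowest of all 10 and rat 022 lay within the non-repaired range. Car9 and Nos2 were also higher in running grafted muscle, by 0.59 and 0.65, but at adjusted p-values of 0.305 and 1.

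Of the 24 genes that rose in non-running rats, 23 were also positive in running rats (95.8%), where 69.5% of all tested genes were positive. At an unadjusted p under 0.05, 6 of the 24 were higher there, as 1.65% of all genes were. Without rat 002, 22 were positive (59.9% of all genes were) and 3 were higher at that threshold (1.46% of all genes were). The median of the 24 was 0.14 in running rats, or 0.11 without rat 002, against 0.54 in the muscles in which they were found. Recql4 had a difference of 0.18 (SE 0.10) and Pole of 0.09 (SE 0.08) in running rats. All 33 cell cycle genes were positive there too, with a median of 0.17 against 0.04 for all genes, and none had an unadjusted p under 0.05; without rat 002 all 33 were positive, with a median of 0.13 against 0.02. The endothelial list had a median of 0.03 with 16 of 23 positive, and of -0.04 with 6 positive without rat 002. The sarcomere list had a median of -0.15. Non-repaired running rat 098 stood apart for this list, at a summed 145200 TPM. The other non-repaired running muscles held 48998 to 82421 TPM. The median level of the list in rat 098 was 1.09 on log2 relative to the mean of the non-repaired running muscles. How far the -0.15 rested on rat 098 was not tested. Other lists had medians of opposite sign in the 2 pairs of arms. Interferon genes had a median of -0.23 in running rats, with 1 of 25 positive, against 0.21 in non-running rats, with 23 positive. The lymphocyte, fibroadipogenic, and tendon and cartilage medians were -0.14, -0.12 and -0.44 in running rats, against 0.15, 0.20 and 0.29. Without non-repaired rat 018 the non-running interferon and fibroadipogenic medians were -0.14 and -0.04. Fusion and new fiber genes had a median of 0.17 in running rats, with 15 of 19 positive, against -0.29 in non-running rats. Matrix genes had a median of -0.10, with 4 of 32 positive, against 0.32. The erythroid list had a median of 0.80 in running and of -1.13 in non-running rats, where it was 0.09 without non-repaired rat 018, so that the opposite sign rested on that muscle. Without rat 002 the fusion, matrix and erythroid medians were 0.20, -0.13 and 0.46.

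The difference between the graft effects of running and non-running rats was tested for each gene. Mir668 alone passed (1 gene of 11213, 0.00892%); it was listed at 0 in every running muscle at 3 days and in all 7 grafted non-running muscles, so that this value, too, is set by the pseudocount and 2 non-repaired muscles. For Recql4 and Pole the effect was smaller in running rats by 0.49 and 0.48, at an adjusted p of 0.897 for each, and 3 cell cycle genes and 4 endothelial genes had a smaller effect at an unadjusted p under 0.05 (3.01% of all genes did). The values of whole lists were mostly negative, as were those of all genes, whose median was -0.10 with 3235 of 11213 positive. None of the 33 cell cycle genes was positive (median -0.32), 1 of the 23 endothelial genes was (median -0.38), and none of the 32 matrix genes was (median -0.45). In the other direction, 5 of 19 fusion and new fiber genes and 4 of 8 erythroid genes had a higher value in running rats at that threshold (1.2% of all genes did), and all 19 fusion and new fiber genes were positive, with a median of 0.41; no member of either list passed the adjusted threshold. Without rat 002, Mir668 and Defb41 passed, 3 cell cycle and 12 endothelial genes had a smaller effect at the unadjusted threshold (4.99% of all genes did), and 5 fusion and 2 erythroid genes a higher value (1.13%). These counts also turned on non-running muscles. Without non-repaired rat 018 no gene passed the adjusted threshold, no erythroid, cell cycle or endothelial gene passed the unadjusted one, and the erythroid median of the difference was 0.75 in place of 1.93, while 6 fusion genes had a higher value (1.13% of all genes did). Without grafted rats 009 and 013, 1 fusion gene did (0.767% of all genes), with a median of 0.21, and all 8 erythroid genes did. Non-repaired running muscle had a mean of 4.78 TPM of Pole and of 3.96 TPM of Recql4, and the 3 non-repaired non-running muscles of 3.17 and 2.55 TPM, whereas the grafted means were 5.17 and 5.26 TPM for Pole and 4.57 and 4.72 TPM for Recql4.

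**Figure D3:**
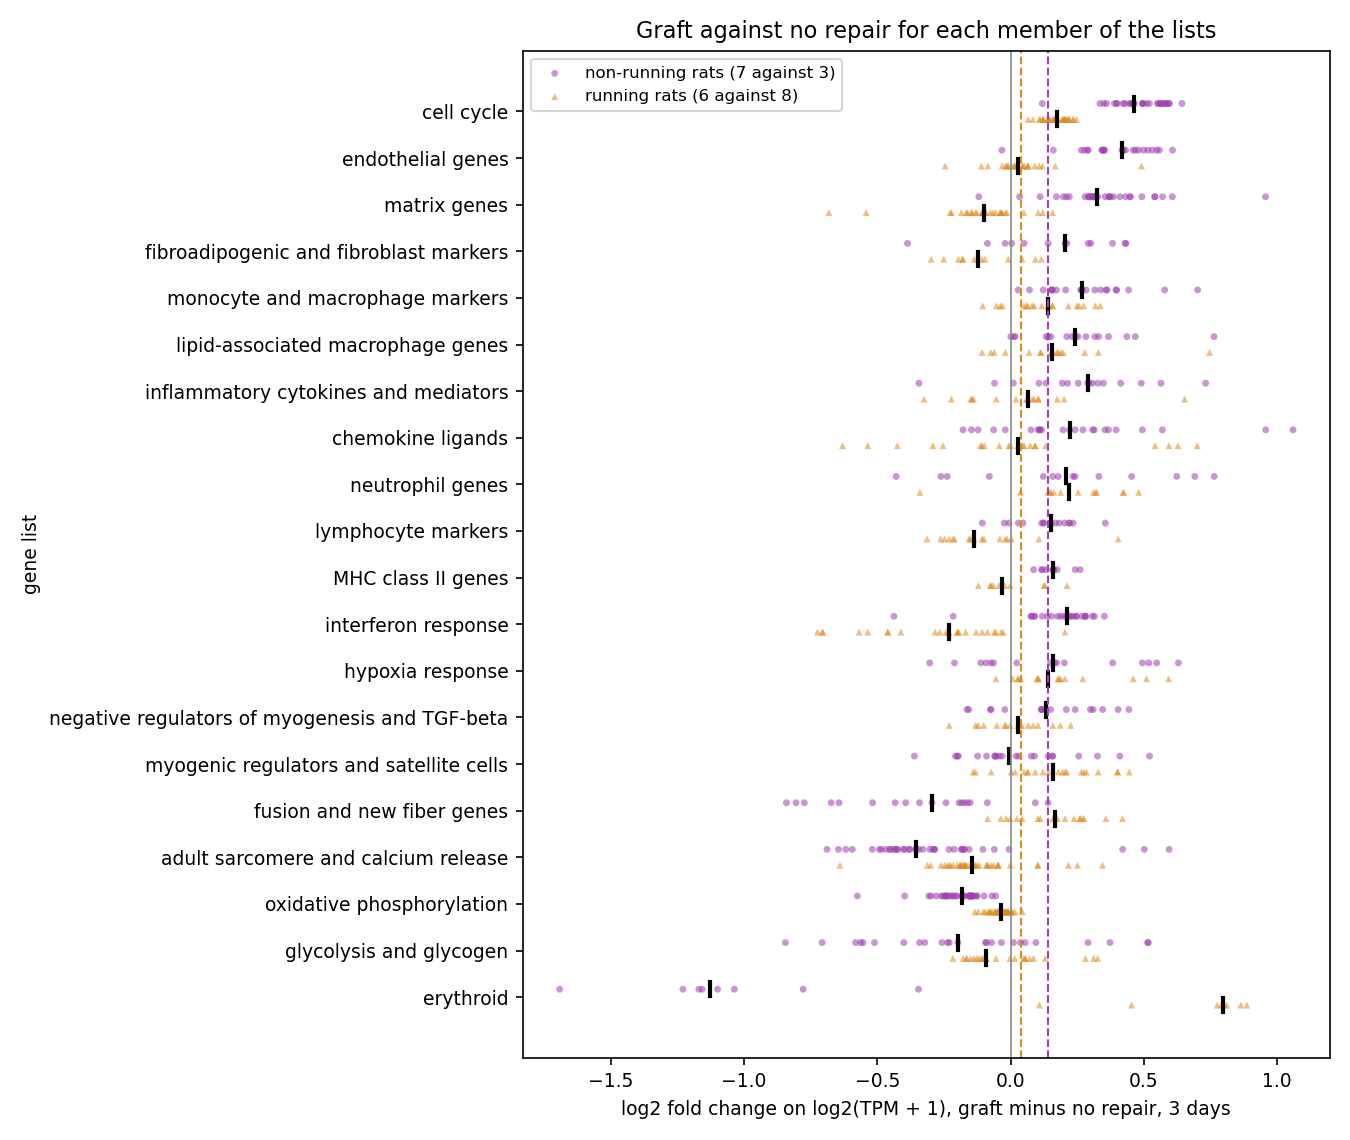
Graft minus no repair at 3 days, as log2 fold change on log2(TPM + 1), for each tested member of each list in non-running rats (purple circles) and running rats (orange triangles); black bars are list medians and dashed lines the medians of all tested genes, 0.14 and 0.04. Cell cycle genes are positive in both, with medians of 0.46 and 0.17, while endothelial, matrix and erythroid medians move between the pairs of arms.

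In the contralateral muscles, which had neither injury nor graft, 2 muscles of grafted rats were compared with 2 of non-repaired rats. No gene was called, the 2 microRNA genes Mir330 and Mir711, named after their values were seen, passed the adjusted threshold in the lower direction (0.0178%), and at an unadjusted p under 0.05 there were 25 higher (0.223%) and 23 lower (0.205%). The cell cycle list had a median of -0.11 there, with 10 of 33 positive.

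At later days, in other rats, the cell cycle list stood far above the median of all genes at 7 days and close to it at 14 and 28 days. With 8 grafted and 8 non-repaired muscles at 7 days, 28 of its 33 members rose (9.12% of all genes did, and 0.0357% fell) and the median was 0.57, against 0.11 for all genes; Mki67 rose by 0.65 and Mcm2 by 0.44. The library of non-repaired rat 011 at 7 days held ribosomal RNA at 16.7% of its TPM, against 0.0799% to 1.31% in the other 15. Without that rat 28 cell cycle genes rose as well, with a median of 0.60 against 0.10 for all genes, where 12.5% of all genes rose and 1.12% fell, and Mki67 rose by 0.71 and Mcm2 by 0.46. With 4 and 4 muscles, its median was 0.14 at 14 days and 0.15 at 28 days, none rose (0.0446% and 0% of all genes did), and the medians of all genes were 0.12 and 0.08. Hmga2 rose by 0.29 at 7 days (adjusted p = 0.00799) and differed by 0.02 and 0 at 14 and 28 days. Recql4 rose by 0.30 at 7 days (adjusted p = 0.0155), or 0.33 without rat 011, and Cd93 differed by 0.21 (adjusted p = 0.210). Whether the values at 3 and 7 days differ from each other was not tested.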

How the data were processed

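Gene expression was measured by RNA sequencing of whole TA muscle. Per the study's methods, the authors made TruSeq libraries from total RNA of samples that passed an integrity limit, sequenced paired ends, and quantified transcripts with Kallisto at default parameters against rat genome build 6.0, and they tested differences with DESeq2 on counts; the submitters' notes name kallisto and DESeq without versions. The deposited values are TPM per gene symbol. Counts were not used here, so the read depth of the single libraries is unknown, no count test was possible, and a value of 0 says only that a gene was listed at 0. The table ended in 1 incomplete line, and genes after it were not analysed here.

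Groups came from the labels, and 9 of 138 libraries had no group. Libraries with fewer than 7000 symbols above 1 TPM were left out (13, none of them among the 10 compared; 2 were libraries of injured running muscles at 3 days that kept another library), and libraries of 1 muscle were averaged, which left 114 muscles. Testing was limited to the 11213 of 16181 symbols whose group mean exceeded 1 TPM in any of the 17 non-running groups. Values were log2(TPM + 1). A limma model (3.58.1, R 4.3.3, statmod 1.5.0) with an intensity trend was fitted to 68 non-running muscles in 17 groups (51 residual degrees of freedom), and one with 114 muscles in 31 groups (83) for the running rats and the difference between graft effects, with Benjamini-Hochberg adjustment over all tested genes. Calls required an adjusted p below 0.05 together with a log2 fold change beyond 1 in either direction. The p-values of limma rest on the spread between muscles within groups, pooled over all groups of the model, uninjured muscles included. Muscles of a group came from different rats, except in the control group, which held the left and right muscle of each rat. Exact permutation tests over 120 splits of the 10 muscles were two-sided. Figures and sequences were made with Python 3.11.15, numpy 2.4.6, pandas 2.3.3 and matplotlib 3.10.9. The fit was tested on simulated data.

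The rule for named genes took the genes named in the study, the members of the gene lists and 12 genes in each direction: called genes whose groups did not overlap, and, as there were none, those with the smallest p and a mean above 5 TPM in either group. Other names, Hmga2, Recql4, Gjb2 and the microRNAs among them, were chosen after their values were seen. The members and the gene lists were chosen with earlier results of these data known, so list counts and medians are descriptions. Alternatives changed the pseudocount, the filter, the scaling, the samples in the model, the low libraries and the replicates, and those that left out muscles with high hemoglobin, low fiber genes or high ribosomal RNA, or muscles from the difference between graft effects, were chosen after seeing the data.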

Additional observations from a re-analysis of the deposited data

Results flagged for a closer look

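Within the 7 grafted muscles, the highest or lowest muscle lay apart from the others for 9 of the 112 genes checked, each time in rat 009; chance flags about 1 in 20 such groups. Blood genes were high: Hbb stood at 20920 TPM (the other 6 at 1285 to 4010 TPM), Hba2 at 6942 TPM (583.5 to 1262), Alas2, the first enzyme of heme synthesis in red cells, at 120.9 TPM (5.75 to 15.71), and Ahsp, the chaperone of alpha-globin, at 25.56 TPM (0 to 1.63). Genes of new fibers were low: Myl4 stood at 71.56 TPM (203.5 to 287.1), Tmem8c at 8.63 TPM (29.14 to 47.00), Actc1, the actin of developing fibers, at 103.6 TPM (393.6 to 694.9), and Chrng, the fetal subunit of the acetylcholine receptor, at 11.9 TPM (35.1 to 66.29). Tcof1 was high at 24.48 TPM (15.73 to 18.63).

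The graft effect on Mir668 differed by 1.28 on the log2 scale between running and non-running rats (limma, adjusted p = 0.0163). This gene was listed at 0 in every running muscle at 3 days and in all 7 grafted non-running muscles, so the value is the log2(TPM + 1) of 2 non-repaired muscles over a floor that the pseudocount sets, and it is no measure of the size of a change; the exact permutation test of the arms in non-running rats gave a two-sided p of 0.0667.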

How the results depend on the processing

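The numbers of genes passing a threshold depended on the processing, and the causes were not tested unless the alternative itself names them. Genes called higher (0) came to 1 without grafted rats 091 and 100, to 24 by adjusted p alone, and to 0 to 2 with any 1 muscle left out. Genes called lower (2) came to 1 with a pseudocount of 0.1 TPM, with size factors, with all groups in the model and without rats 009 and 013, to 0 with the 2 groups alone and as a mean over running and non-running rats, to 5 by adjusted p alone, and to 1 to 7 with 1 muscle left out. Genes higher at an adjusted p under 0.05 (24) came to 0 with a pseudocount of 0.1 TPM or the 2 groups alone, to 45 with no filter, 1 with size factors, 3 with all groups, 9 with all libraries kept, 2 without rats 009 and 013, 1 without rats 009 and 018, and 4 to 92 with 1 muscle left out. Genes lower at that threshold (5) came to 1 with a pseudocount of 0.1 TPM and without rats 009 and 013, 9 with no filter, 2 with size factors, all groups or the mean over running, 0 with the 2 groups alone, 3 without rats 009 and 018, and 1 to 12 with 1 muscle left out. In all, 5 of the 29 genes remained without rat 009, 6 without rat 018, 16 without rat 010, and 24 of the 97 found without rat 017. The endothelial median (0.42) was 0.22 as a mean over running rats and 0.21 without rats 009 and 018. In running rats the 2 genes came to 0 with a pseudocount of 0.1 TPM or the 2 groups alone and to 1 with all libraries kept, and the 0 genes called to 1 without rat 002; the 1 gene of the difference and the 2 contralateral genes came to 0 with that pseudocount, and the former to 2 without rat 002 or rat 010, where both were called, 3 without rat 017 (2 of them called) and 0 without rat 018. With 1 muscle left out the difference of log2(TPM + 1), which the pseudocount sets for genes at 0, of Mir150 ranged from -1.37 to 0 and that of Mir350 from -1.004 to 0: each is 0 without the 1 muscle that held a value above 0, rat 018 (also when left out with rat 009) and rat 010. Over single genes, 2464 alternatives stayed on the same side of the threshold, 289 no longer passed it, 28 newly passed it and 3, those of Mir150 and Mir350 just given, came to 0. A change of direction was counted only where a gene passed the threshold in either fit, so the 2464 can include changes of direction in genes that missed it. The cell cycle median stayed between 0.28 and 0.58 and the sarcomere median between -0.55 and -0.02.

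The compared arms share no rat, so replicate numbers do not pair them. With the rat as a replicate block, for rats that gave several muscles, 24 genes were higher and 5 lower at an adjusted p under 0.05, with 0 and 2 called, and the block changed no call; the estimated correlation was -0.01. Muscles of 1 rat had a mean residual r of 0.06 over 24 pairs.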

Other observations

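Several lists lay near the median of all genes (0.14) with all 10 muscles in the fit, where 16.2% of all genes were higher and 1.82% lower at an unadjusted p under 0.05. The 13 tested fibroadipogenic and fibroblast markers had a median of 0.20 (-0.04 without rat 018) with 2 higher at that threshold, the 17 lipid-associated macrophage genes 0.24 with 1, the 17 genes of TGF-beta and the negative control of myogenesis 0.13 with 1, the 12 Schwann cell and nerve genes 0.08 (0.32 without rat 017) with 1, and the 12 genes of atrophy and denervation 0.02 (-0.25 without rat 010) with none. Markers of other tissues gave no member at that threshold: tendon and cartilage had a median of 0.29 over 9 genes, adipocytes of 0.23 over 5 (-0.13 without rat 018), and keratinocytes of 0.02 over the 2 of 10 genes that were tested. The 8 erythroid genes had a median of -1.13 with 3 lower, and of 0.09 without rat 018. With size factors the lipid-associated median was 0.08 and the TGF-beta median 0.02. The former was 0.39 without rat 010, and the latter 0.23 without rat 017. The tendon and cartilage median was 0.70 with a pseudocount of 0.1 TPM and 0.10 as a mean over running and non-running rats.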
